A study of Sus scrofa with 20 samples.

Results

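Cells of the pig liver that carried neither CD45, the surface antigen of white blood cells, nor EpCAM, a surface antigen of duct and progenitor epithelium, were sequenced in 2 libraries titled S5 and S14. These are all CD45-/EpCAM- libraries among the 8 liver libraries with title numbers from 3 to 14, out of 20 libraries in the series. The 6 others are 3 CD45-/EpCAM+ libraries (S4, S9 and S13) and 3 CD45+ libraries (S3, S8 and S12). All 8 are poly(A) RNA of liver, and the labels name no genotype and no treatment for any of them. The labels give tissue and sorted phenotype but neither animal, age nor sorting day, so each p-value below measures only the spread between these libraries. The study used fewer pig donors than there are libraries, so some libraries of the series share an animal. Its list of pigs covers the biliary tree libraries alone, and there S2, S7 and S11, whose title numbers come just before those of the liver libraries used here, are from different piglets with an H2B-GFP transgene (a fluorescent histone). Which piglet gave which liver library is not stated in the labels or that list. The study worked with piglets and took large CD45-/EpCAM- cells of fetal or newborn liver to be hepatocytes. The labels do not say whether cell size was gated here. The study also states that it left non-parenchymal cells of pig liver out of its RNA-seq comparison, without naming the libraries meant.

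In newborn mammals the liver still holds remnants of its fetal role as a blood-forming organ. Red cell precursors mature there around macrophages, lose CD45 early and make haemoglobin, while granulocyte precursors fill their granules with proteases and iron-binding proteins. A gate against CD45 and EpCAM can leave any cell without these antigens, among them hepatocytes, endothelium, stellate cells and red cell precursors. In bulk RNA, fewer cells of a type and less RNA per cell cannot be told apart, and this holds for every difference below.

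Values are normalized counts as deposited. Depth was even except in S13, where 1 read was worth 25.7 normalized counts and the library held about 801406 reads, against 21261700 to 48169000 reads in the 7 others (estimated from the step between low values). A value of 0 in S13 therefore allows up to 77.1 normalized counts (3 reads, counting error only), while the floor was at most 4.27 in the others. S14 follows S12 and S13 in title number, and S5 follows S3 and S4. Libraries of such a run deviated together from their fraction means, so a fit with the run (3 to 5, 8 and 9, 12 to 14) as a term is printed beside the fit without it. With the run term, the CD45-/EpCAM- result rests on 2 within-run differences.

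Across 14632 genes tested, the limma fit without a run term called 0 genes between CD45-/EpCAM- and the mean of the other 2 fractions at an adjusted p under 0.05 and a change over 2-fold. It gave 2234 genes (15.3%) with an unadjusted p under 0.05, and the smallest adjusted p was 0.0516. With the run term, limma called 344 genes (2.35%; 26.6% had an unadjusted p under 0.05), of which 158 were higher (1.08%) and 186 lower (1.27%) in CD45-/EpCAM-. The balance of directions depended on the scaling, with 160 higher and 503 lower after rescaling every library to the same total and 168 higher and 135 lower with median-of-ratios factors. Of the 344, 137 higher and 170 lower genes showed no overlap between the 2 libraries and the 6 others. Over all genes tested, 6.35% lay above and 10.8% below all 6 others. The count called with the run term went from 82 without S5 to 2399 without S14, and was 207 without S13 and 1221 without S12. Against CD45-/EpCAM+ alone, 85 genes (0.581%) were called with the run term, 61 higher (0.417%) and 24 lower (0.164%), and 23.3% had an unadjusted p under 0.05. This count was 2286 without S14, 154 without S12, 30 without S5, 10 without S4 and 0 without S13. Against CD45+ alone, 506 (3.46%) were called, 173 higher (1.18%) and 333 lower (2.28%), with 22.9% at an unadjusted p under 0.05; after rescaling, 148 were higher and 713 lower. Without the run term limma called 0 genes against CD45-/EpCAM+ (1775, or 12.1%, had an unadjusted p under 0.05) and 2 against CD45+ (1920, or 13.1%). A fit of all 20 libraries, without the run term, called 164 higher (1.12%) and 539 lower (3.68%) against the mean of the other fractions; 232 of its 703 calls (33.0%) were among the 344 (67.4%).

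**Figure D1:**
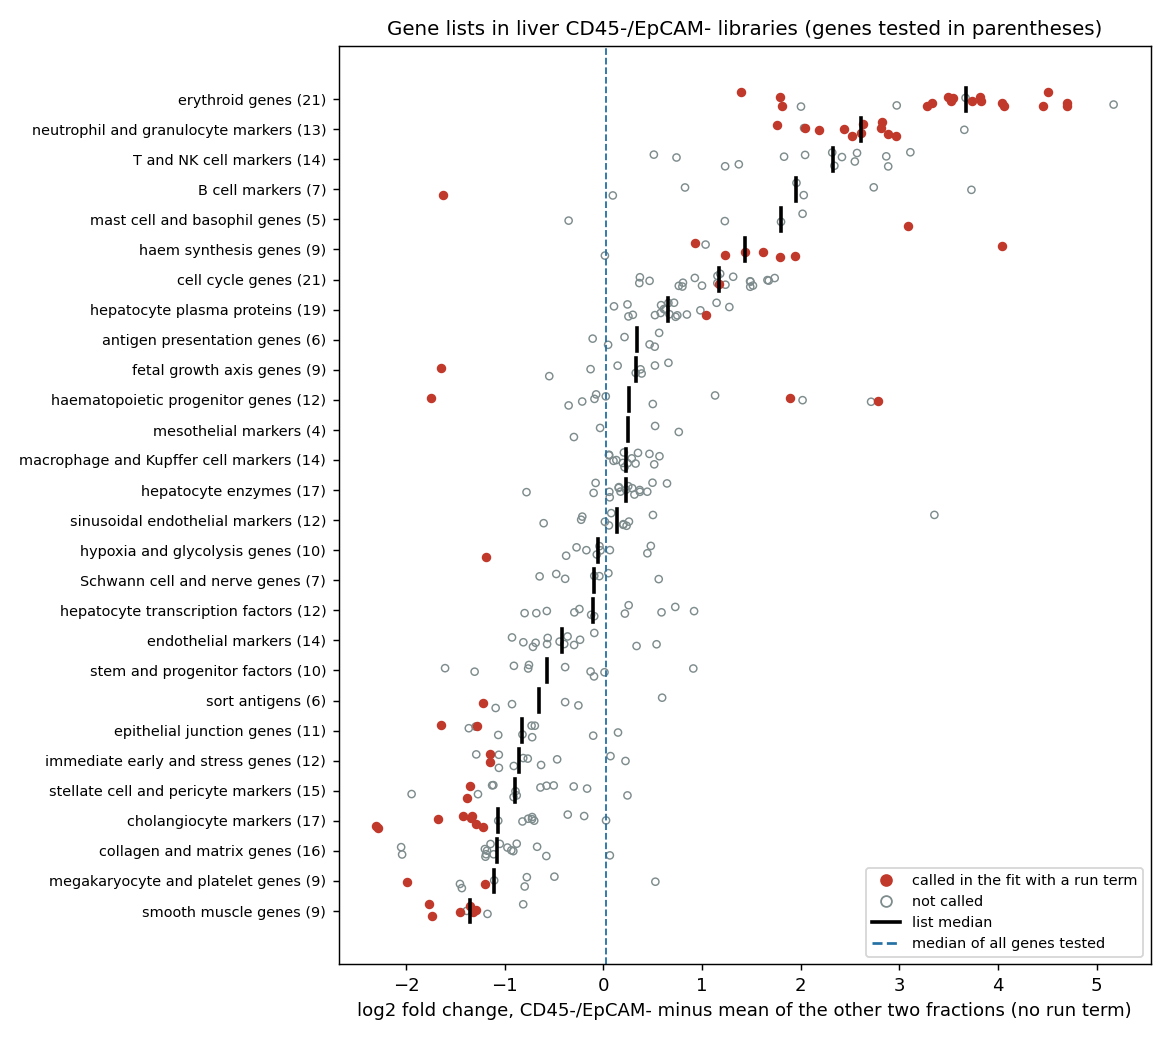
Log2 fold change of each gene of 28 lists, CD45-/EpCAM- minus the mean of the other 2 fractions, without a run term. Filled points were called in the limma fit with a run term, open points were not, black bars are list medians and the dashed line is the median of all 14632 genes tested (0.03). Erythroid genes, with a median of 3.67, lie farthest to the right and smooth muscle genes, with a median of -1.35, farthest to the left.

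The gate was checked first against the RNA of its own antigens. PTPRC, which encodes CD45, stood at 1317 normalized counts in S5 and 2850 in S14. It ranged from 424 to 3027 in the 6 other libraries, with the CD45+ libraries at 424, 1153 and 2687, so PTPRC RNA did not follow the gate. EPCAM stood at 1090 in S5 and 491 in S14 and between 1205 and 2232 in the others, with the CD45+ libraries (1415 to 2232) as high as the CD45-/EpCAM+ ones (1205 to 1779). EPCAM lay below all 6 others in both CD45-/EpCAM- libraries, a log2 difference of -1.22 with an exact permutation p of 0.0714 (two-sided), which is the smallest p that 2 against 6 libraries can give. PECAM1 and MCAM, antigens of endothelium and vessel wall, also lay below all 6 others (log2 differences -0.92 and -1.09, the same exact permutation p). ICAM1 overlapped, at 1995 in S5 and 5179 in S14 against 2118 to 6221. NCAM1, another antigen gene listed, gave an exact permutation p of 0.571.

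Red cell genes had the highest median difference of the 28 lists, which were drawn up with earlier results of these data known. Of 21 erythroid genes tested, 20 lay above all 6 other libraries in both S5 and S14, and the median log2 fold change was 3.67, against 0.03 over all genes tested. With the run term 17 of the 21 rose and 0 fell; without it 0 were called in this comparison. The count with the run term stayed between 13 and 20 when each of the 8 libraries was left out in turn.

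Haemoglobin genes are described first. HBB, the adult beta globin, stood at 840919 normalized counts in S5 and 181672 in S14. In the CD45-/EpCAM+ libraries it stood at 16264 (S4), 41024 (S9) and 15376 (S13), and in the CD45+ libraries at 11736 (S3), 15011 (S8) and 14149 (S12). HBB took 2.78% of all normalized counts in S5 and 0.803% in S14 but at most 0.179% in the 6 others. In normalized counts, its level in S14 was 4.43 times and in S5 20.5 times the highest of the 6. S5 also had the largest total, 30268300 normalized counts against 22903800 in S9. The log2 fold change was 4.51 ± 0.62 (SE) without the run term (adjusted p 0.0516) and 4.77 ± 0.51 with it (adjusted p 0.0054). Globin genes share sequence, and how reads were split among them is not given in the sources used here, so single globin values are uncertain. HBM, an alpha-type globin of red cell precursors, stood at 6581 and 1236 against 95.5 to 259. The embryonic HBZ stood at 51.4 and 17.8 against 0 to 4, and was not called (adjusted p 0.096 with the run term). S13 was at 0 for HBZ, which allows up to 77.1, so S13 does not bound it. HBE1, the epsilon globin, was the only listed gene that overlapped, at 66.9 in S5 and 30.0 in S14 against 0 to 100 in the others.

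AHSP, the chaperone that holds free alpha globin, had 7664 normalized counts in S5 and 1583 in S14 and 82.2 to 278 elsewhere. Its log2 fold change was 4.88 ± 0.53 with the run term (adjusted p 0.0054). ALAS2, which starts haem synthesis in red cell precursors, had 11367 and 3372 against 240 to 888. It rose by 4.31 ± 0.40 on the log2 scale (adjusted p 0.0028 with the run term, 0.0516 without).

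Genes of the red cell membrane and its skeleton were higher as well. SLC4A1, the band 3 anion exchanger, stood at 15882 in S5 and 5229 in S14; the CD45-/EpCAM+ libraries held 654 (S4), 1655 (S9) and 488 (S13), and the CD45+ libraries 477 (S3), 445 (S8) and 232 (S12). SPTB, the beta spectrin chain, had a log2 fold change of 3.92 ± 0.29 with the run term (adjusted p 0.0014). EPB42, which ties band 3 to the skeleton, stood at 2092 and 712 against 67.0 to 227. Blood group genes rose as well: KEL stood at 804 and 291 against 0 to 82.9, RHCE at 2043 and 676 against 46.9 to 175, and ERMAP at 398 and 218 against 6.13 to 72.8. S13 held 0 reads of KEL, so a log2 fold change of KEL depends on the pseudocount.

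Regulators of the lineage were higher too. GATA1, the factor that directs red cell fate, stood at 1267 in S5 and 610 in S14 against 68.3 to 141, and rose by 3.47 ± 0.34 on the log2 scale with the run term (adjusted p 0.0035). KLF1, which activates the adult beta globin gene, had 1401 and 848 against 0 to 207 and missed the threshold (adjusted p 0.052 with the run term, 0.205 without), with S13 at 0. TFRC, the transferrin receptor that brings in iron, had 11266 and 7339 against 1847 to 3355. TRIM58, a ubiquitin ligase of late red cell precursors, had 948 and 649 against 25.7 to 223.

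**Figure D2:**
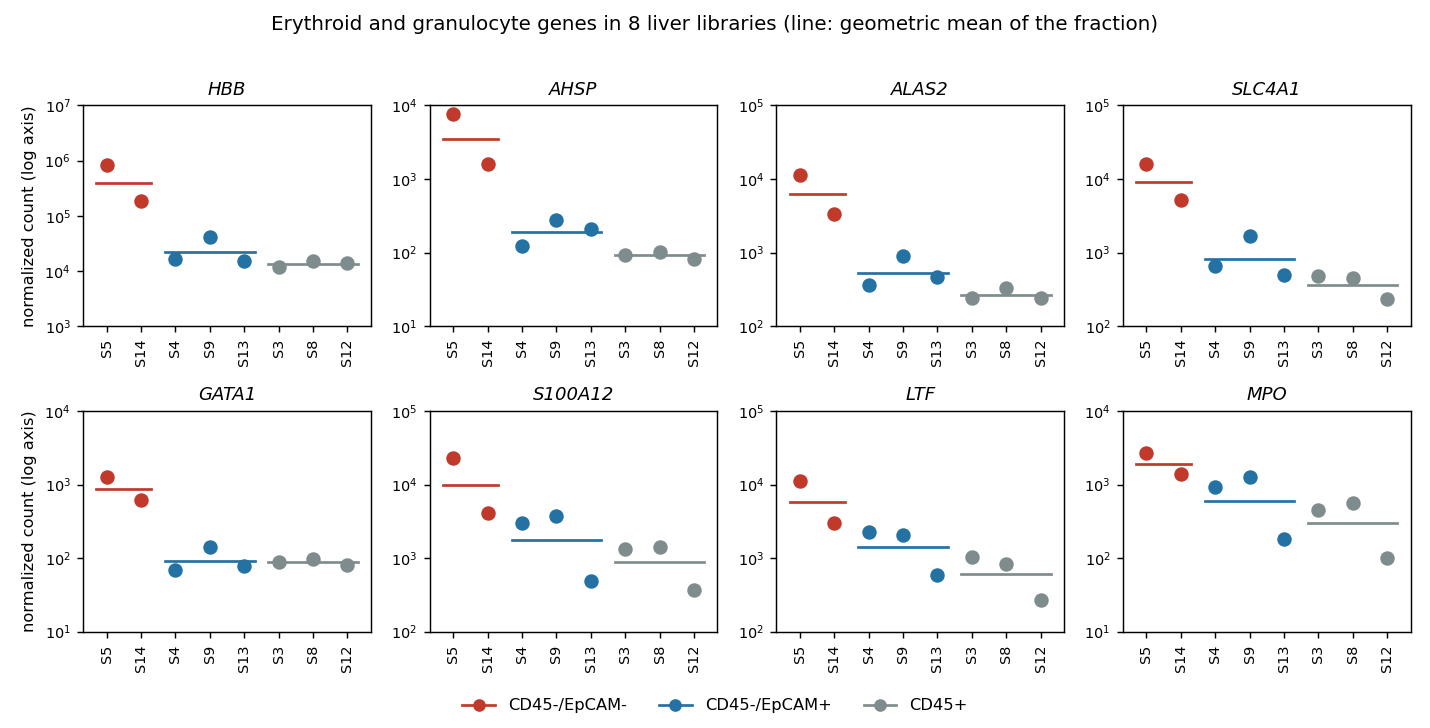
Normalized counts on a log axis in each of the 8 libraries for 5 erythroid genes (HBB, AHSP, ALAS2, SLC4A1, GATA1) and 3 granulocyte genes (S100A12, LTF, MPO); lines are geometric means of a fraction. S5 and S14 lie above all 6 others in each panel; GATA1 reaches 610 in S14 against 141 in S9, while S100A12 is 4170 in S14 against 3764 in S9.

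Most enzymes of haem synthesis went the same way. Of 9 tested, 7 lay above all 6 others and 7 rose with the run term (median log2 fold change 1.44); 2 of the 7, ALAS2 and FECH, are also in the erythroid list. UROD had 2329 in S5 and 915 in S14 against 440 to 607, and UROS 3412 and 1077 against 203 to 798. FECH, which inserts iron into the ring, had 5272 and 3144 against 955 to 1677, a log2 fold change of 1.92 ± 0.21 with the run term (adjusted p 0.0061). ALAS1, the form of the first enzyme used outside red cells, did not separate, at 1870 and 2232 against 1341 to 3124 (log2 fold change 0.02 ± 0.30, adjusted p 0.987 without the run term). The number of these enzymes called with the run term fell to 2 when S13 or S3 was left out.

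Granule genes of neutrophils and their precursors formed the next group. Their summed level was 117169 in S5 and 32528 in S14, 6008 to 27601 in CD45-/EpCAM+ and 3622 to 11516 in CD45+. The CD45+ libraries, gated for the antigen of white blood cells, thus held less than S5 and S14. Why these genes were lower in that gate was not tested. Of 13 tested, 10 lay above all 6 others and 11 rose with the run term (median log2 fold change 2.61); 0 were called without it. Leaving out each library in turn left 10 to 12 called. LTF, the iron-binding lactoferrin of secondary granules, stood at 11120 in S5, 2993 in S14, 2239 in S4, 2068 in S9, 591 in S13, 1021 in S3, 842 in S8 and 269 in S12. S5 and S14 lay above the 6 others, S14 by a small margin over S4 and S9 and by a wide one over S12 and S13. Within runs the log2 difference was 2.88 for S5 against S3 and S4 and 2.91 for S14 against S12 and S13. The log2 fold change was 2.64 ± 0.74 without the run term (adjusted p 0.152) and 2.89 ± 0.15 with it (adjusted p 0.00042).

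Proteins of the primary granule, which promyelocytes make, were higher too. MPO, the peroxidase that makes hypochlorous acid, stood at 2664 in S5 and 1390 in S14. The CD45-/EpCAM+ libraries held 934 (S4), 1250 (S9) and 181 (S13), and the CD45+ libraries 452 (S3), 571 (S8) and 101 (S12). ELANE, neutrophil elastase, had 1428 and 774 against 49.4 to 324, a log2 fold change of 3.17 ± 0.37 with the run term (adjusted p 0.0072). AZU1 had 6082 and 2642 against 207 to 1144, and PRTN3 3921 and 1949 against 147 to 1218. CEBPE, a factor needed for late granules and looked up after values were seen, stood at 325 and 129 against 12.3 to 87.9.

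Calprotectin genes split the 2 libraries more. S100A8 stood at 16666 in S5 but at 3069 in S14, next to 2963 in S9 and 2081 in S4. S100A9 overlapped, with 4489 in S14 and 4668 in S9, although it rose by 2.93 ± 0.20 on the log2 scale with the run term (adjusted p 0.0012). NPG1, a protegrin from a family of near-identical genes whose reads may be split among copies, had 23896 and 9489 against 1144 to 8701. MMP8 overlapped the others, at 1681 in S5 and 199 in S14 against 0 to 264. EPX, the peroxidase of eosinophils and also looked up afterwards, stood at 477 in S5 and 25.1 in S14 against 0 to 25.3.

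Genes of mast cells and basophils were few. MS4A2, the beta chain of the IgE receptor, stood at 1018 in S5 and 997 in S14 against 54.4 to 245. It was the 1 gene of 5 tested that rose with the run term (log2 fold change 2.97 ± 0.44, adjusted p 0.020), and 0 of the 5 were called without S5 or without S3. KIT, the stem cell factor receptor, stood at 510 and 406 against 67.0 to 205 and missed the threshold (adjusted p 0.053 with the run term). FCER1A, the alpha chain, stood at 76.9 and 261 against 13.4 to 77.2, and HDC, the histamine-making enzyme, at 117 and 201 against 40.0 to 142. Both therefore overlapped.

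Progenitor regulators went both ways. MYB, which keeps blood precursors dividing, rose (718 in S5 and 389 in S14 against 26.2 to 172; log2 fold change 2.95 ± 0.38, adjusted p 0.011 with the run term). TAL1, a partner of GATA1, rose as well (355 and 250 against 67.7 to 104; adjusted p 0.033). CD34, carried by early blood progenitors and by endothelium, fell (433 and 519 against 771 to 2974; log2 fold change -1.55 ± 0.31, adjusted p 0.048). Of 12 tested, these 3 were called with the run term, 2 higher and 1 lower; without S5 0 were called, and without S14 6 higher and 1 lower.

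Many T and NK cell genes lay above the other fractions, at low levels and without passing the test. B cell genes leaned higher too, except EBF1. Of 14 T and NK cell genes, 11 lay above all 6 others and the median log2 fold change was 2.33, yet 0 passed the threshold in either fit. CD3E, part of the T cell receptor complex, stood at 144 in S5 and 73.7 in S14 against 9.41 to 31.7 (adjusted p 0.064 with the run term), and CD3D at 48.6 and 40.1 against 2.89 to 25.7. In S13 a single read sits at 25.7, so its values bound these genes poorly. CD8A, LCK and NKG7 overlapped. Without S13, 2 of the 14 were called with the run term. Of 7 B cell genes tested, 6 had a positive log2 fold change (median 1.96), and 2 lay above and 1 below all 6 others. The summed level of the 8 B cell genes with a row was 627 in S5 and 688 in S14 against 543 to 900. VPREB1, the surrogate light chain of B cell precursors, stood at 99.8 and 22.3 against 0 to 6.24. PAX5 stood at 34.0 and 33.6 against 0 to 9.21. S13 was at 0 for both, which allows up to 77.1, and only VPREB1 in S5 lay above that bound. Neither VPREB1 nor PAX5 was called (adjusted p 0.074 and 0.12 with the run term). EBF1, a factor of B cell precursors and also of stromal cells, fell (102 and 137 against 227 to 616, adjusted p 0.048 with the run term), and this call ended without S5, S4, S9, S13, S3 or S8 and with median-of-ratios factors.

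Cell cycle genes were high in S12, S13 and S14 as well as in S5. MKI67, made in dividing cells, stood at 7645 in S5 and 10736 in S14, and at 1056 in S4, 3701 in S9, 8998 in S13, 1260 in S3, 2090 in S8 and 5563 in S12. All 21 genes tested had a positive log2 fold change (median 1.18) and 6 lay above all 6 others, but 1 (RRM2, a subunit of ribonucleotide reductase) rose with the run term. S5 lay above S3 and S4 by 2.73 on the log2 scale for MKI67, and S14 above S12 and S13 by 0.60. With the run term, 19 of the 21 were called without S14 and 0 without S5, S4, S13 or S3.

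**Figure D3:**
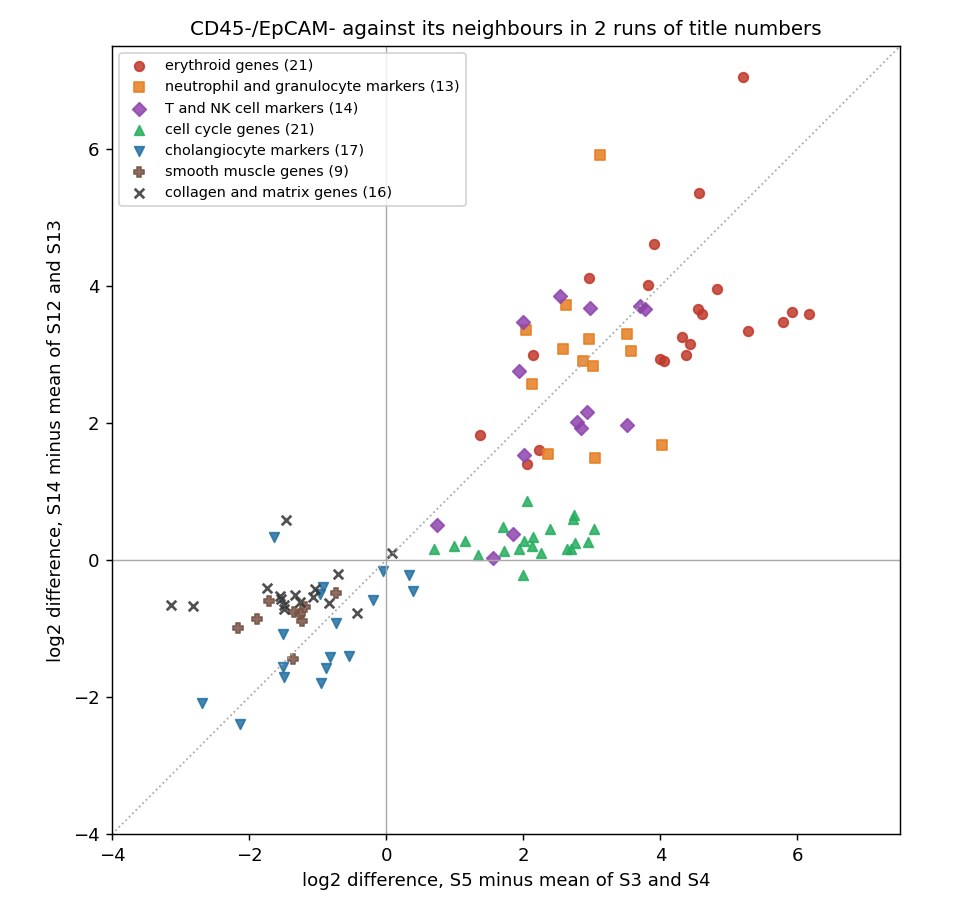
Each point is a gene: the log2 difference of S5 from the mean of S3 and S4 (horizontal) against that of S14 from the mean of S12 and S13 (vertical), for 7 gene lists, with the line of equal differences dotted. Erythroid genes lie between 1.36 and 6.16 horizontally and between 1.40 and 7.04 vertically. Genes at 0 in S13, such as KLF1 and CA1, allow up to 77.1 normalized counts there, so their vertical values may be too large. Cell cycle genes spread along the horizontal axis, with MKI67 at 2.73 and 0.60.

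Genes of the bile duct epithelium were lower. Of 17 cholangiocyte markers tested, 8 lay below all 6 other libraries and 8 fell with the run term (median log2 fold change -1.06); 0 rose, and 0 were called without the run term. The number called was 3 to 8 when each library was left out in turn, lowest without S3. EPCAM, a sort antigen, is 1 of the 8.

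SCTR, the secretin receptor of duct cells, stood at 781 in S5 and 478 in S14. In the others it stood at 3226 (S4), 2996 (S9), 2782 (S13), 3653 (S3), 3410 (S8) and 2276 (S12), all far above both. It fell by 2.26 on the log2 scale (SE 0.17, adjusted p 0.0014 with the run term, 0.0516 without). PKHD1, fibrocystin of the duct cilium, stood at 257 and 389 against 927 to 1970 (log2 fold change -2.21 ± 0.30, adjusted p 0.015). CFTR, the chloride channel, stood at 613 and 602 against 1140 to 1743 (-1.29 ± 0.18, adjusted p 0.014).

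Epithelial regulators were lower as well. SOX9, a factor of duct fate, had 534 and 272 against 754 to 1708, and ELF3 555 and 232 against 643 to 1879. EHF had 242 and 156 against 449 to 866. The bicarbonate transporter SLC4A4 stood at 3107 and 1787 against 3658 to 12555. Each of these 4 fell with the run term, with adjusted p from 0.0054 (ELF3) to 0.015 (SLC4A4). Of 11 epithelial junction genes, GRHL2 and PARD6B fell with the run term and 9 were not called. The count was 0 without S5, S4 or S3, 1 without S9, S13 or S8, 4 without S14 and 5 after rescaling.

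SOX9, CFTR, SCTR and ELF3 were called against the CD45-/EpCAM+ fraction and also against the CD45+ fraction, whose libraries hold as much of these genes as the EpCAM+ ones. For SCTR, the CD45+ mean lay 0.03 above the CD45-/EpCAM+ mean on the log2 scale. The 2 comparisons share the CD45-/EpCAM- libraries. The direct test of CD45+ against CD45-/EpCAM+, which is also the test of whether these comparisons differ, called 0 genes in either limma fit, with 231 (1.58%) at an unadjusted p under 0.05 without the run term and 758 (5.18%) with it.

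**Figure D4:**
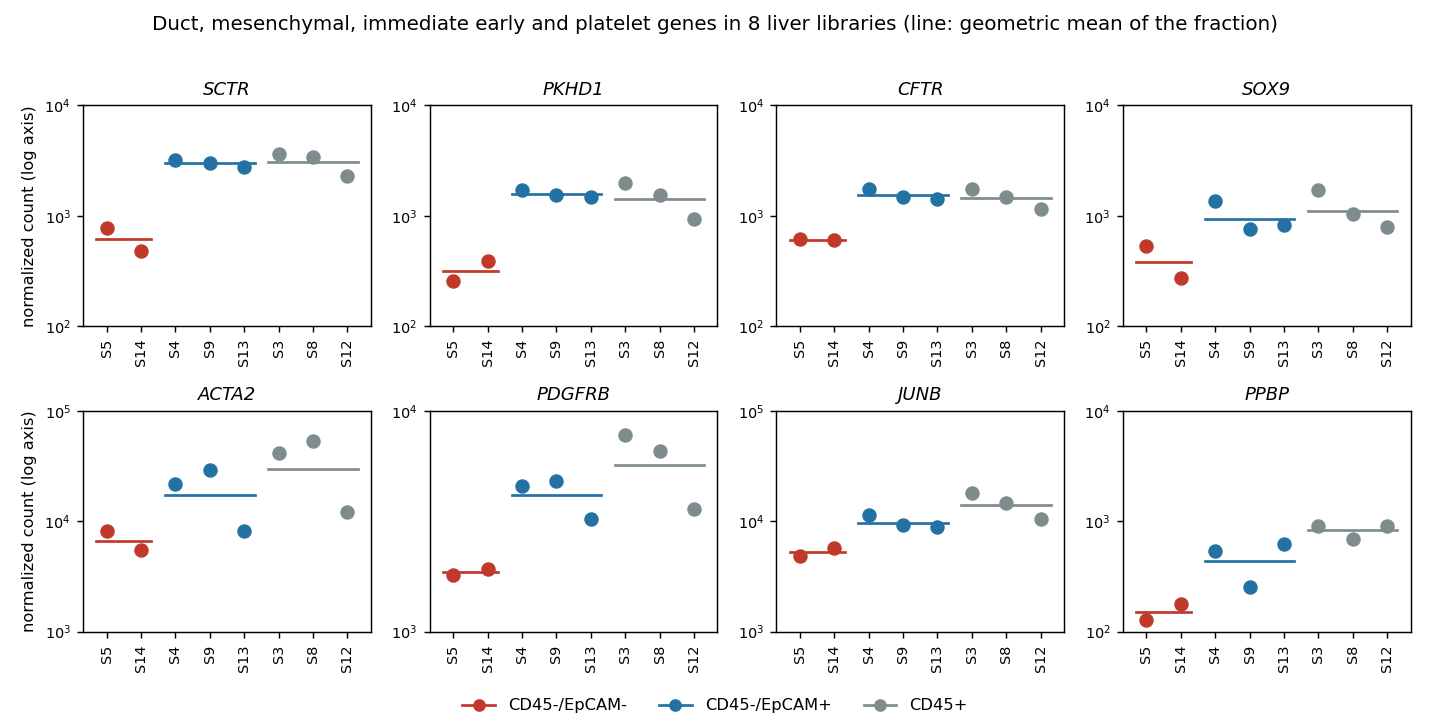
Normalized counts on a log axis in each of the 8 libraries for 4 duct genes (SCTR, PKHD1, CFTR, SOX9), 2 mesenchymal genes (ACTA2, PDGFRB), JUNB and PPBP; lines are geometric means of a fraction. S5 and S14 lie below all 6 others in each panel, with ACTA2 in S5 (8098) close to S13 (8254). The panels do not stand for whole lists. Only 8 of 17 cholangiocyte markers, 5 of 9 smooth muscle genes and 6 of 15 stellate cell and pericyte markers lay below all 6 others.

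Contractile and mesenchymal genes were lower as well. Of 9 smooth muscle genes, 5 lay below all 6 others and 6 fell with the run term (median log2 fold change -1.35). Without S5, S3, S4 or S13, 0 were called, and without S14 or S12, 8. ACTA2, smooth muscle actin, stood at 8098 in S5, 5539 in S14, 21622 in S4, 29113 in S9, 8254 in S13, 41703 in S3, 53876 in S8 and 12217 in S12. S5 thus lay just under S13, and within runs both CD45-/EpCAM- libraries lay below their neighbours (log2 differences -1.89 and -0.86). SYNPO2, of the contractile Z-body, stood at 592 and 742 against 1412 to 3364 (log2 fold change -1.58 ± 0.28, adjusted p 0.037 with the run term).

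Of 15 stellate cell and pericyte markers, 6 lay below all 6 others and 2 fell with the run term (0 without S5, S4, S13 or S3). These were PDGFRB, the growth factor receptor of pericytes (1815 in S5 and 1932 in S14 against 3234 to 7818, log2 fold change -1.27 ± 0.24, adjusted p 0.040), and PDGFRA (95.8 and 176 against 280 to 394). LRAT, which stores vitamin A in quiescent stellate cells, overlapped, at 181 and 485 against 176 to 1323. Of 16 collagen and matrix genes, 10 lay below all 6 others (median log2 fold change -1.08) and 0 were called in either fit. Among them were FBN1, fibrillin (914 and 2563 against 3956 to 9777), and COL15A1 (279 and 957 against 1261 to 4235). With the run term, 12 of the 16 were called without S14, 8 without S12 and 0 without S5, and 7 after rescaling every library to the same total.

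Genes that cells switch on within minutes of a stimulus lay lower too. Of 12 immediate early and stress genes, 8 lay below all 6 others, and JUNB and ATF3 fell with the run term (8 genes without S14, 0 without S5, S4, S9, S13, S3 or S8). JUNB stood at 4867 in S5 and 5752 in S14 against 8820 to 17901, a log2 fold change of -1.15 ± 0.23 (adjusted p 0.046). FOS stood at 32560 and 43249 against 47276 to 70004 and was not called. Of 9 megakaryocyte and platelet genes, 5 lay below all 6 others, and PPBP, a platelet chemokine, and ITGB3, an integrin chain, fell with the run term. The count of 2 fell to 1 without S5, S4, S9, S13, S3 or S8 and with median-of-ratios factors, and was 4 after rescaling. PPBP had 128 and 178 against 252 to 911 (log2 fold change -2.25 ± 0.24, adjusted p 0.0054).

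The 2 genes called without the run term came from the comparison with CD45+ (0.0137% of genes tested, 0.00683% in each direction). TMCC2, a membrane protein abundant in red cell precursors, stood at 4329 and 1717 against 181, 151 and 158 in S3, S8 and S12 (log2 fold change 4.06 ± 0.39, limma adjusted p 0.047). F3, tissue factor, which starts coagulation, stood at 657 and 571 against 2985, 3433 and 2305 (log2 fold change -2.23 ± 0.21, adjusted p 0.047). Neither was called with a pseudocount of 0.1, with median-of-ratios factors, with no filter, or without S5, S4, S3 or S8. Both also lay outside the CD45-/EpCAM+ values, with TMCC2 at 222 to 318 and F3 at 1926 to 1992.

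Outside the lists, the 12 largest falls with the run term included ANKRD1, a stretch-responsive gene (106 in S5 and 206 in S14 against 468 to 1212; log2 fold change -2.38 ± 0.19, adjusted p 0.0015), and MYRIP, which links vesicles to myosin (17.1 and 21.7 against 57.8 to 286). The 12 largest rises included SLC14A1, the urea carrier of red cells (296 and 159 against 0 to 36.0), CA1, a carbonic anhydrase of red cells (567 and 94.3 against 0 to 30.3), and KEL. In these 3, S13 is listed at 0, which allows up to 77.1, so their fold changes and ranks are uncertain.

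Hepatocyte genes were present at high levels in all 3 fractions, and their plasma protein genes leaned higher in CD45-/EpCAM-. The summed plasma protein level was nevertheless highest in S4, at 3706078 against 3407813 in S5 and 3019235 in S14. Only 3 of the 19 lay above all CD45-/EpCAM+ libraries (11.2% of all genes tested did). Hepatocyte transcription factors did not lean higher (median log2 fold change -0.11, 5 of 12 positive). ALB, albumin, stood at 663869 normalized counts in S5, 1348204 in S14, 929142 in S4, 567871 in S9, 794426 in S13, 525057 in S3, 513084 in S8 and 563788 in S12. All 19 plasma protein genes tested had a positive log2 fold change, as had 52.4% of all genes tested (median 0.66, and 0.45 after rescaling each library to the same total), 3 lay above all 6 others and 10 above the 3 CD45+ libraries (12.2% of all genes tested did), and APOA2 alone was called with the run term (21651 in S5 and 12192 in S14 against 5676 to 10930, log2 fold change 1.18 ± 0.22, adjusted p 0.040). With the run term, 0 of the 19 were called after rescaling, or without S5, S4, S9, S13 or S3. TF, transferrin, had 277276 and 403682 against 162800 to 270189, and TTR, transthyretin, 29601 and 32529 against 8551 to 17701. Of 17 hepatocyte enzymes 0 lay outside the others or were called. CPS1, the first urea cycle enzyme, stood at 24777 and 14051 against 5701 to 93371.

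Most endothelial and all 14 macrophage genes tested overlapped the other libraries. CD163, the haemoglobin scavenger receptor of macrophages, stood at 15220 in S5 and 35637 in S14, with 50865 in S13 and 40930 in S12 but 10434 to 21781 in the other 4. STAB2, a scavenger receptor of sinusoidal endothelium, stood at 5300 and 40206 against 7793 to 60522. S12, S13 and S14 were thus the highest 3 libraries for both genes. Of 14 macrophage, 12 sinusoidal and 14 general endothelial markers, 0 were called in either fit; 3 general endothelial markers, EMCN, PECAM1 and VWF, lay below all 6 others (VWF at 2131 and 2651 against 2946 to 5626), and 1 sinusoidal marker, CRHBP, lay above them (26.5 and 20.7 against 0 to 6.98, with S13 at 0). KDR and CDH5 overlapped.

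The remaining lists held few called genes. Of 10 hypoxia and glycolysis genes, CA9, a carbonic anhydrase induced by low oxygen, fell with the run term (206 and 118 against 180 to 646, adjusted p 0.035); it was not called without S5, S4, S9, S3 or S8. Of 9 fetal growth axis genes, IGFBP3, a binding protein of insulin-like growth factors, fell (579 and 1762 against 1841 to 4147, adjusted p 0.048); it was not called without S5, S4, S13 or S3 or with median-of-ratios factors. Of 12 hepatocyte transcription factors, 10 stem and progenitor factors, 7 Schwann cell genes, 6 antigen presentation genes and 4 mesothelial markers, 0 were called in either limma fit.

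Over whole profiles the 2 CD45-/EpCAM- libraries correlated at 0.94 with each other (Pearson, across 14632 genes, which are not independent replicates). Their correlations with the CD45-/EpCAM+ libraries ranged from 0.826 to 0.962 (median 0.925) and with the CD45+ libraries from 0.892 to 0.967 (median 0.914). The CD45+ and CD45-/EpCAM+ libraries correlated with a median of 0.959. S14 correlated more with S12 (0.967) and S9 (0.962) than with S5, and S5 correlated least with the shallow S13.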

How the data were processed

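Poly(A) RNA of sorted pig liver cells was extracted with RNeasy and sequenced from stranded TruSeq libraries. Normalized counts (a signal that is not whole reads) were deposited by the authors as 1 table of 25764 genes by 20 libraries; the labels' processing notes name STAR, Salmon and DESeq2, without role or version, and the genome build is not given in the sources used here. Genes carry names only, and 7782 have none. Groups were taken from the cell type label and the 8 liver libraries with title numbers 3 to 14 were used.

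limma 3.58.1 in R 4.3.3 (lmFit, contrasts, eBayes with trend) was run on log2(normalized count + 1), with 3 groups and no covariate. A gene was tested where 2 or more of the 8 libraries reached 10 normalized counts, which left 14632. Fold changes are on that scale, and adding 1 shrinks those of low genes. A 0 in S13 is entered as 0 although it allows up to 77.1 normalized counts, which can enlarge a rise. P-values were two-sided, those of limma with Benjamini-Hochberg adjustment across all genes tested. Calls needed both an adjusted p under 0.05 and an absolute log2 fold change over 1. The script was tested on simulated data. Antigen genes were compared by exact permutation tests, whose p-values are printed without adjustment. Adjusted over the 6 antigen genes, the permutation p of EPCAM against the other 6 libraries was 0.143. Reads in S13 and the floors were estimated from the step between low values, of which 56.0% to 81.6% lay near whole reads, too few to recover counts.

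The labels give no replicate number. Runs of neighbouring title numbers were entered as a block. The deviations of 7 pairs of libraries of 1 run from their group means correlated at 0.371 to 0.641. Those of 14 pairs from different runs correlated at -0.595 to 0.244. These pairs are not independent, since the deviations of S5 and S14 mirror each other (0.466 for S5 with S4, -0.466 for S14 with S4). Values from different runs are therefore partly fixed by those of 1 run. The labels do not say that a run is 1 donor or 1 day. Libraries of 1 fraction differed from each other by 2.08 (S9 and the shallow S13) to 6.94 counting SD in the median gene, so none was treated as a repeat deposit; this does not show that they come from separate animals.

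Of 378 listed genes, 328 had a row and 317 were tested. Lists, members and the run block were chosen with earlier results of these data known. Named genes are list genes and, by rule, the 12 largest called changes in each direction with no overlap and at least 100 normalized counts on average in the higher group; since 2 genes were called without the block, this rule was applied to calls with the block after values were seen. No sequences are shown, since the table gives gene names only. A few listed genes are not reported here by name.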

Additional observations from a re-analysis of the deposited data

How the results depend on the processing

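Calls depended on the run term and on single libraries. Without the run term, a pseudocount of 0.1 or array weights left the count against the mean of the other fractions at 0. Against the mean of the other fractions, where limma called 0 genes without the run term, it called 45 with a pseudocount of 10, 49 after rescaling to the same total, 10 with median-of-ratios factors, 2 with no filter, 24 with a filter of 50 in 3 libraries, 703 in a fit of all 20 libraries and 37 with only the libraries compared. Leaving out 1 library gave 0 to 157 (157 without S14, 124 without S12). With the block of neighbouring title numbers it called 344, or 663 rescaled and 303 with median-of-ratios factors, and 82 without S5, 2399 without S14, 92 without S4, 279 without S9, 207 without S13, 83 without S3, 277 without S8 and 1221 without S12.

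Against CD45-/EpCAM+ (0 called), all 20 libraries gave 184 and leaving out 1 library 0 to 7. The block gave 85, or 83 rescaled and 87 with median-of-ratios factors, and 30 without S5, 2286 without S14, 10 without S4, 78 without S9, 0 without S13, 45 without S3, 85 without S8 and 154 without S12. Against CD45+ (2 called), counts were 0 with a pseudocount of 0.1, with median-of-ratios factors or with no filter, 37 with a pseudocount of 10, 220 rescaled, 20 with the stricter filter, 539 with array weights (whose estimation stopped before convergence), 742 with all 20 libraries, 1 with only the libraries compared, and 0 to 256 leaving out 1 library (256 without S12, 68 without S13, 23 without S14). The block gave 506, or 861 rescaled and 468 with median-of-ratios factors, and 122 without S5, 2370 without S14, 249 without S4, 223 without S9, 497 without S13, 49 without S3, 221 without S8 and 863 without S12. The cause of these changes was not tested. Where S5 or S14 is left out, the lone CD45-/EpCAM- library is assumed to vary like the other fractions. The correlation of S5 with S14 was 0.877 over the 3000 genes with the largest SD. Rescaling to the same total moved the median of all genes by -0.208, -0.164 and -0.252 on the log2 scale in the 3 comparisons.

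Directions turned in genes that were called in neither fit. ALAS1 went to -0.19 rescaled, -0.27 with array weights, and ranged from -0.11 to 0.14 leaving out 1 library (below 0 without S14, S13, S3 or S12), and -0.12 with the block without S14. PTPRC went to -0.00072 (block without S5), and ALB to -0.073 (block without S14), and CPS1 to 0.88 and 0.13 (block without S5 and without S4). Leaving out 1 library, ICAM1 ranged from -0.94 to 0.44, CDH5 from -1.80 to 0.18 and KDR from -1.74 to 0.60, each above 0 without S5 alone. CD163 went to -0.00012 with the block, -0.21 with the block rescaled, -0.40 to 0.82 leaving out 1 library (below 0 without S14 or S4), and -0.36, -0.22 and -0.00012 with the block without S5, S4 and either S9 or S8. STAB2 went to 0.23 with array weights and ranged from -1.69 to 1.24 leaving out 1 library (above 0 without S5, S13 or S12).

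The labels give no replicate numbers, so the block of neighbouring title numbers above is the only grouping of libraries across fractions that was fitted. Depth limits S13, where values under 77.1 are within 3 reads.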

Other observations

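The libraries outside the comparison give the range of the same genes, with no test. HBB ranged from 1355 to 2480 normalized counts in the 7 liver libraries with title numbers 16 to 23 and from 28318 to 125452 in the 5 pBTSC libraries (biliary tree stem cells, labelled gallbladder and prepared from gallbladder and extrahepatic ducts), against 181672 and 840919 in the 2 CD45-/EpCAM- libraries and 11736 to 41024 in the 6 libraries beside them. Every one of the 7 later liver libraries thus held less HBB than each of the 8 earlier ones, the CD45+ and CD45-/EpCAM+ sorts included. ALAS2 ranged from 31.3 to 171 in the later liver libraries and from 628 to 2730 in the pBTSCs.

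Of these libraries S22 (liver) and S15 (pBTSCs) are shallow, so that values under 156 in S22 and under 37.7 in S15 are within 3 reads. The summed level of the 13 neutrophil and granulocyte genes was 589 to 951 in the later liver libraries, against 3622 to 27601 in the 6 libraries beside CD45-/EpCAM-. MPO stood at 0 to 5.28 in the later liver libraries, at 12.6 to 445 in the pBTSCs (the lowest being 1 read in S15), and at 101 to 1250 in the 6 libraries beside CD45-/EpCAM-. S100A8 stood at 60.8 to 105 in the later liver libraries. VPREB1 was listed at 0 to 1.33 in the later liver libraries and at 0 to 15.9 in the pBTSCs, against 22.3 and 99.8 in the CD45-/EpCAM- libraries, ranges that bound nothing for the shallow libraries.

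MS4A2 differed from these, with 249 to 2344 in the pBTSCs, a range that includes both CD45-/EpCAM- values of 997 and 1018, and 21.3 to 103 in the later liver libraries. CD3E had 33.9 to 197 in the pBTSCs, again around the CD45-/EpCAM- values. SCTR stood at 1770 to 2822 in the later liver libraries and at 353 to 1549 in the pBTSCs, so the CD45-/EpCAM- values of 478 and 781 lay inside the pBTSC range.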
